A study of Mus musculus with 7 samples.

Results

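The 31 genes described here encode the carriers, stores and sensor of zinc and copper: the Slc30 and Slc39 zinc carriers, the metallothioneins Mt1 and Mt2, the factor Mtf1, the copper pumps Atp7a and Atp7b, and the copper carriers Slc31a1 and Slc31a2. They were chosen by gene symbol in the annotation of the array, and all 31 of 31 had a probe set, among 19938 genes with a probe set of their own. Where a gene had more than 1 probe set the brightest was taken, which concerned only Slc39a1. Expression was measured on whole-transcript microarrays in left lobe liver of C57BL/6 male littermates, each mouse on an array of its own. Of the mice, 4 were controls with 1 floxed and 1 wildtype allele of Trpm6 (Trpm6 fl/+). In the 3 Trpm6-deficient mice (Trpm6 Δ17/Δ17;Sox2-Cre) exon 17 was deleted on both alleles. Sox2-Cre acts in the epiblast, from which the whole body of the embryo arises, so the deletion is not restricted to liver, and it leaves extraembryonic tissue intact. The control mice carried no Cre, so the effect of the transgene and that of the deletion cannot be told apart here. Controls 1 and 2 and Trpm6-deficient 2 were 12 weeks old, and controls 3 and 4 and Trpm6-deficient 1 and 3 were 13 weeks old.

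Trpm6 encodes an epithelial channel for divalent cations that is known for magnesium transport in gut and kidney. Zinc enters the cytosol through Slc39 carriers and leaves it, for the outside or for organelles, through most Slc30 carriers. Free zinc is held by metallothioneins, small cysteine-rich proteins that also bind copper and are among the most inducible genes of liver. MTF1, the zinc sensor, binds metal response elements when zinc rises and induces metallothioneins and Slc30a1, while it holds down Slc39a10. Glucocorticoids and interleukin 6 also induce metallothioneins. Copper enters hepatocytes through Slc31a1 and leaves them for bile and ceruloplasmin through Atp7b.

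The promoters of both metallothionein genes are shown because these genes had the largest differences of the 31. The windows run from 250 bases before to 50 bases after the start site of RefSeq in GRCm38.p6, on the plus strand, at chr8:94178839-94179138 for Mt1 and chr8:94172368-94172667 for Mt2. Capitals mark the core of the metal response element, searched as TGCACNC or TGCGCNC on both strands, where N is any base.
Mt1: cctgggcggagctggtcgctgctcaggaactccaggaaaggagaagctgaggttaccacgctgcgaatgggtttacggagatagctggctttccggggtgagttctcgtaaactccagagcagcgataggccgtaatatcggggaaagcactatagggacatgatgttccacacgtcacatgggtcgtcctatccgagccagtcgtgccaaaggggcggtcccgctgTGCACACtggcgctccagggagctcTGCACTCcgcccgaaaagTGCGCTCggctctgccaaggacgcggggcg
Mt2: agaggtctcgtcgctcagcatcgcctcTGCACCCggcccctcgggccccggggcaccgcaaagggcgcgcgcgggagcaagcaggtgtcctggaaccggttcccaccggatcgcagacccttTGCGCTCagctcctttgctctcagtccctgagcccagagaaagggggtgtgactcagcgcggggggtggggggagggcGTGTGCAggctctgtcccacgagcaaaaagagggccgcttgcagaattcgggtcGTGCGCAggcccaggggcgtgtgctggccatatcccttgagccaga
The window of Mt1 held 3 matches, at -23, 3 and 21 from the start site and all on the strand of the gene. The window of Mt2 held 4, at -223 and -128 on the strand of the gene and at -50 and 5 on the other, which are printed as their complement. Of all 32851 promoter windows in the table, 25.7% held at least 1 match and 1.97% held 3 or more. Windows were used for 27 of the 31 genes, with 32 windows in all, of which 17 (53.1%) held a match. Slc30a8, Slc39a4, Slc39a6 and Slc39a14 had no window in use. Any window of a member on an excluded chromosome was dropped before this count, so these genes may hold matches not counted here. Among the windows used, those of Mt1 and Mt2 were joined at 3 or more matches only by those of Slc30a4 and Slc30a10. The pair of overlapping matches of Slc30a10 shares its bases. Slc30a1 had 2 matches and Slc39a10 none in either of its windows. Which start sites liver uses was not examined, and a match is not a bound site.

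**Figure D1:**
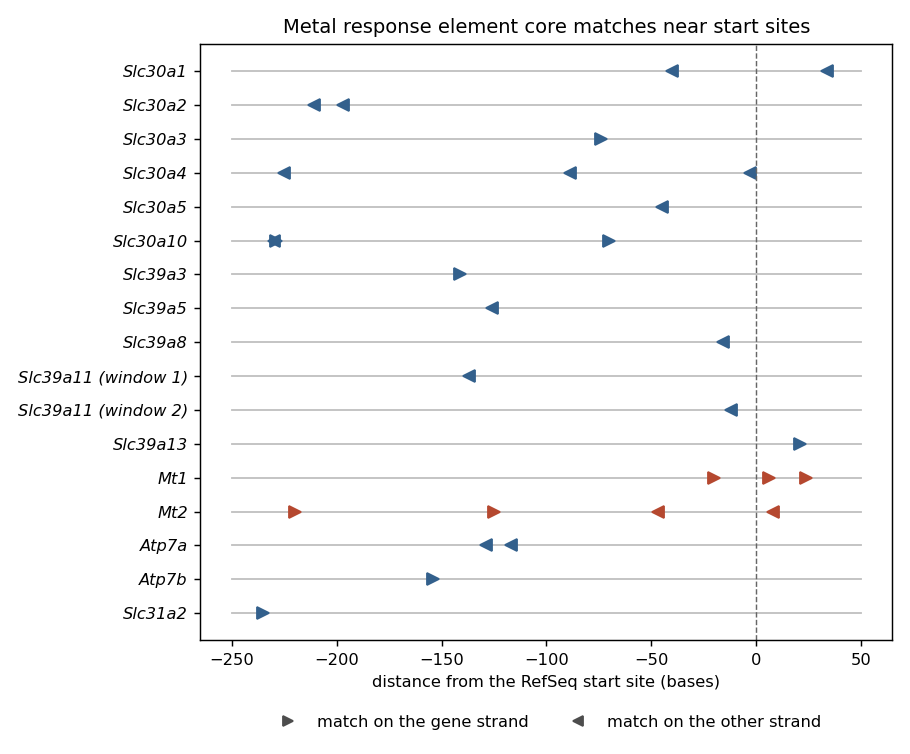
Positions of the metal response element core in those of the used promoter windows of the members that held at least 1 match. The horizontal axis is the distance in bases from the RefSeq start site (dashed line), arrows give the strand, and Mt1 and Mt2 are in red, with 3 and 4 matches.

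All values are log2 expression values, so a difference of 1 is a doubling of signal. The median of the arrays lay between 6.43 and 6.48 and their lower quartile between 5.05 and 5.11. The targeted gene Trpm6 was at 5.50 to 5.53 in control and 5.37 to 5.50 in Trpm6-deficient livers, which differ by -0.05 (standard error, SE, 0.05; limma adjusted p = 0.882), and whether its probes lie in exon 17 was not examined. Liver identity was checked with 7 measured hepatocyte markers, whose mean level was 13.71 to 13.87 in control and 13.80 to 13.83 in Trpm6-deficient livers. Control 4 stood apart in transcripts of the exocrine pancreas. The mean level of 6 pancreatic acinar markers was 7.16 in control 4 against 6.17 to 6.28 in the other controls and 6.14 to 6.24 in Trpm6-deficient livers. Control 1 was lowest for Kupffer cell markers (8 genes, mean level 8.32 against 9.04 to 9.21 in the other controls and 8.61 to 8.75 in Trpm6-deficient livers). All 7 sinusoidal endothelial and 7 of 8 Kupffer cell markers had a log2 change below 0, and none of them reached an unadjusted p of 0.05. Before adjustment the stellate cell markers Reln (log2 change 0.30) and Des (0.28) and the bile duct marker Krt19 (0.33) were higher and the acinar marker Cela1 (-0.26) was lower in Trpm6-deficient livers, with limma adjusted p of 0.586, 0.672, 0.672 and 0.685. In bulk liver, fewer cells of a type and less RNA per cell cannot be told apart.

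Metallothioneins stood higher in Trpm6-deficient livers than the control mean, by more than any carrier, pump or sensor of the list, but they also varied widely between control mice. None of the members passed in limma at an adjusted p of 0.1 or less. Over the whole array 46 of 35556 probe sets did, or 0.129% (0.0759% higher and 0.0534% lower), so with 31 genes a count of 0 does not set these genes apart from the rest. Before adjustment, 3 members (9.68%) had a p of 0.05 or less, with Mt1 and Atp7b higher and Slc30a9 lower, against 6.87% of all probe sets (3.85% higher and 3.03% lower). Groups that did not overlap were found in 3 members (9.68%), Mt1 higher and Slc30a1 and Slc30a9 lower, against 5.33% of all probe sets (2.94% higher and 2.38% lower). The median log2 change of the 31 genes was 0.02, and over all probe sets with 1 gene symbol it was -0.005 (21789 probe sets). Without control 4, no member was higher and 1 was lower at this p, and without Trpm6-deficient 3 the counts were also 0 and 1.

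**Figure D2:**
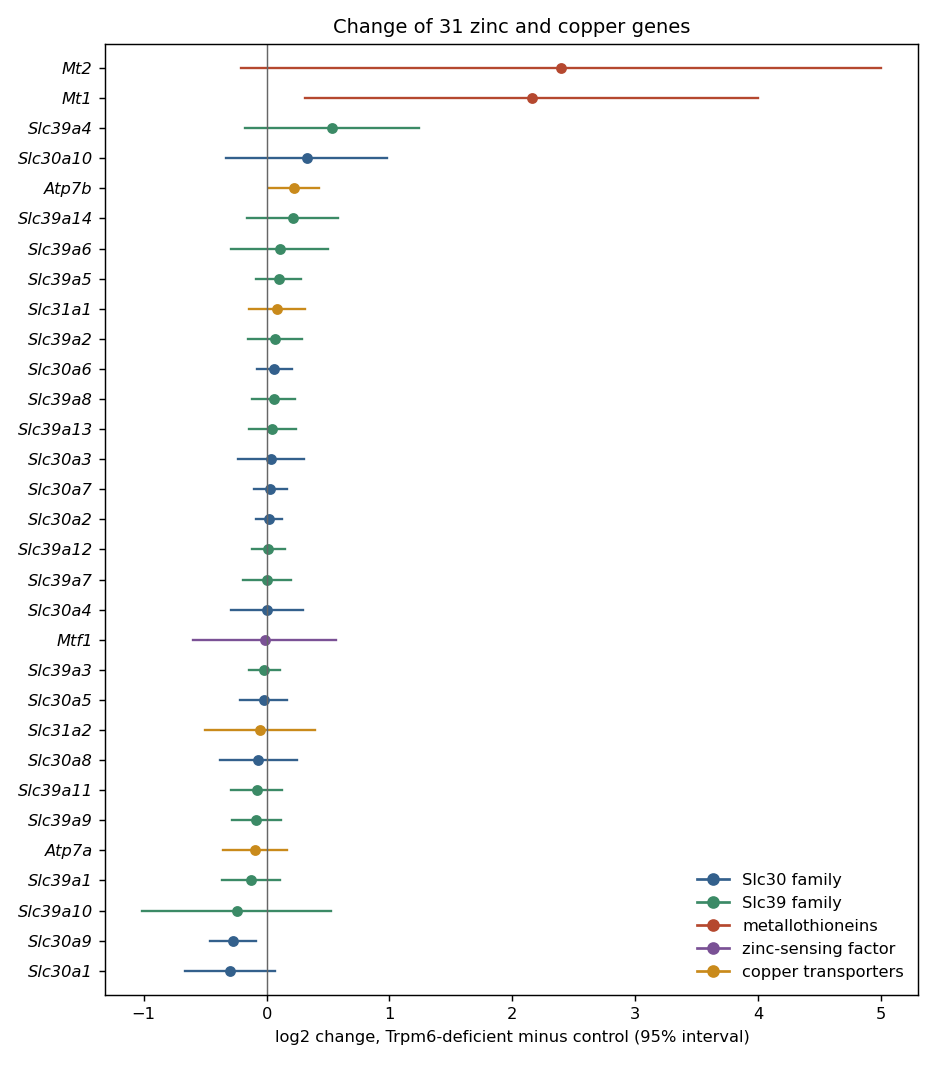
Log2 change of each of the 31 genes, Trpm6-deficient minus control, as a point with its 95% interval from limma (4 control and 3 Trpm6-deficient livers). Mt2 and Mt1 lie at 2.40 and 2.16 with wide intervals, and the other 29 genes lie between -0.30 and 0.53.

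Mt1 had log2 values of 11.01, 8.13, 10.87 and 9.06 in controls 1 to 4 and of 12.47, 11.45 and 11.85 in Trpm6-deficient livers 1 to 3. Every Trpm6-deficient liver was above every control, with controls 1 and 3 close below and controls 2 and 4 far below. Controls averaged 9.77 ± 1.41 (SD, n = 4), and the mean of Trpm6-deficient livers was 11.92 ± 0.51 (SD, n = 3). The log2 change was 2.16 (SE 0.77, 95% interval 0.31 to 4.00), or 4.46-fold, with an unadjusted p = 0.0283 and a limma adjusted p = 0.665. Mt2 had values of 11.98, 8.08, 11.95 and 9.32 in controls 1 to 4 and of 13.52, 11.79 and 12.88 in Trpm6-deficient livers 1 to 3. The same controls were high and low as for Mt1, and Trpm6-deficient 2 lay just below controls 1 and 3, so the groups overlapped. Its log2 change was 2.40 (SE 1.08, 95% interval -0.21 to 5.004), or 5.27-fold, with a limma unadjusted p = 0.0657 and adjusted p = 0.770. Log2 changes of 2 or more upward were found in 21 of 35556 probe sets, or 0.0591%, and Mt1 and Mt2 are among these. Within each age the direction was the same: the difference of Mt1 was 1.88 at 12 weeks (1 against 2 livers) and 2.195 at 13 weeks (2 against 2), and that of Mt2 was 1.76 and 2.57. The direction of both genes held in 14 of 14 alternative settings, with log2 changes of 1.61 to 2.57 for Mt1 and 1.65 to 2.95 for Mt2. As Mt1 did not overlap between the groups, its direction could not turn within an age or without a liver. Without control 4, the liver with pancreatic transcripts, the change of Mt1 was 1.92 (limma unadjusted p = 0.0705). Its unadjusted p from limma was 0.0931 without Trpm6-deficient 1, 0.0672 without Trpm6-deficient 3 and 0.0691 in 13-week livers alone.

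The spread of both metallothionein genes among control littermates was itself large. The lowest and the highest control differed 7.36-fold in Mt1 and 14.9-fold in Mt2. The SD of Mt2 among the controls, 1.95 log2 units, was reached or passed by 5 of 35556 probe sets, its own included, and that of Mt1 by 27. For the 31 genes the median SD was 0.12 among control and 0.14 among Trpm6-deficient livers, and over all probe sets it was 0.13 among the controls. Besides Mt1 and Mt2, only Slc39a10 and Slc39a4 had an SD above 0.5 among the controls.

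**Figure D3:**
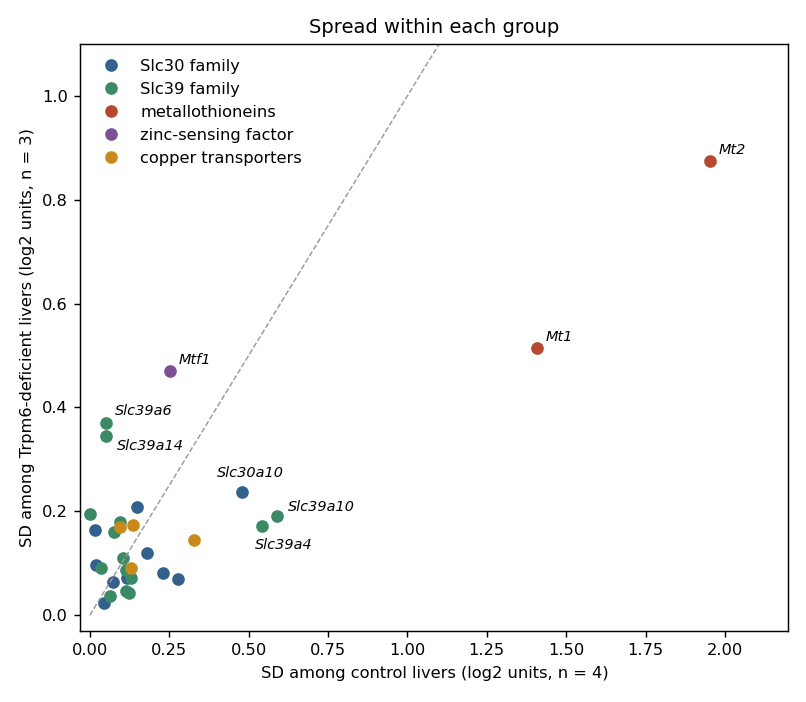
SD of each of the 31 genes among control livers (horizontal axis, log2 units, n = 4) and among Trpm6-deficient livers (vertical axis, log2 units, n = 3), coloured by family, with equal spread as a dashed line. Mt1 and Mt2 lie far to the right, at control SDs of 1.41 and 1.95.

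Mt3 and Mt4 lie beside Mt2 and Mt1 on the chromosome and are known mainly from brain and from stratified epithelia. Mt3 was at 7.65 to 7.72 in control and 7.65 to 7.70 in Trpm6-deficient livers, with a mean of 7.67 in both groups (95% interval of the difference -0.10 to 0.10). Mt4 was at 5.74 to 5.8 and 5.67 to 5.87, with a mean of 5.77 in both groups (95% interval of the difference -0.14 to 0.14). The controls thus lay within 0.07 log2 units of each other in Mt3 and within 0.06 in Mt4.

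Mtf1, the zinc-sensing activator of metallothioneins, had values of 8.30, 8.70, 8.71 and 8.90 in controls 1 to 4 and of 8.13, 8.72 and 9.06 in Trpm6-deficient livers 1 to 3. The Trpm6-deficient livers lay on both sides of the controls, with a log2 change of -0.02 (95% interval -0.60 to 0.57, limma adjusted p = 0.998). Slc30a1, the zinc exporter of the plasma membrane and a target of MTF1, had values of 8.72, 8.73, 9.28 and 8.72 in controls 1 to 4. In Trpm6-deficient livers 1 to 3 it had values of 8.64, 8.50 and 8.56. All 3 were below every control, by a small margin over controls 1, 2 and 4. The log2 change was -0.30 (SE 0.15, limma adjusted p = 0.810) and without control 3 it was -0.16 (limma unadjusted p = 0.0262). Neither Slc30a1 nor Mt1 overlapped between the groups, so the 3 livers lowest in Slc30a1 were necessarily the 3 highest in Mt1. Among these 3, both genes were highest in Trpm6-deficient 1 and lowest in Trpm6-deficient 2. Slc39a10, a zinc importer that MTF1 represses, had values of 7.55, 8.24, 6.84 and 7.26 in controls 1 to 4 and of 7.01, 7.34 and 7.34 in Trpm6-deficient livers 1 to 3. Control 2 was highest for Slc39a10 and lowest for Mt1 and Mt2. Its log2 change was -0.24 (SE 0.32, limma adjusted p = 0.918), and the Trpm6-deficient livers lay within the range of the controls. The sign turned without control 2 (0.0133) and in 13-week livers alone (0.125), and the change was -0.453 without control 3 and -0.1325 without Trpm6-deficient 1.

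**Figure D4:**
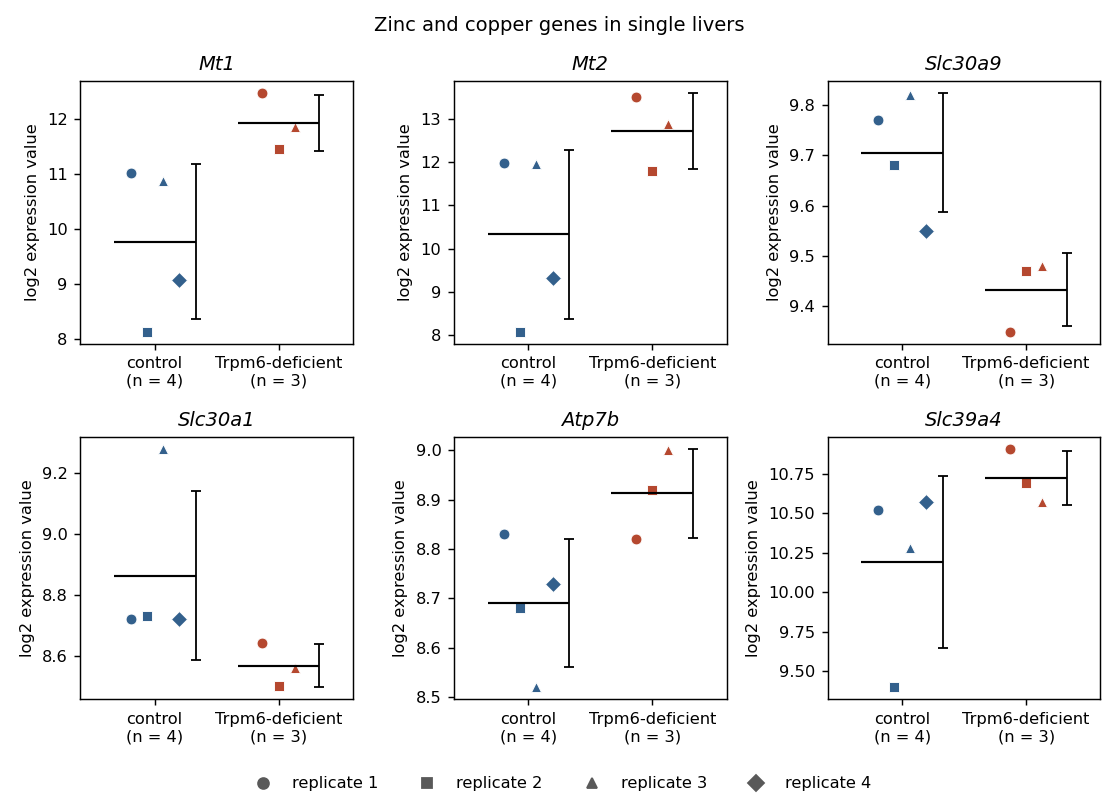
Log2 expression values of 6 members in 4 control and 3 Trpm6-deficient livers, a point for each, with lines at the group means, bars of 1 SD, marker shapes giving the replicate number and an axis of its own for each gene that does not start at 0. Mt1, Slc30a9 and Slc30a1 do not overlap between the groups, and the control points of Mt1 and Mt2 lie in the same order.

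Slc30a9, a zinc carrier of mitochondria, had the smallest p of the members. It was at 9.77, 9.68, 9.82 and 9.55 in controls 1 to 4 and at 9.35, 9.47 and 9.48 in Trpm6-deficient livers 1 to 3. All Trpm6-deficient livers lay below all controls, the nearest being control 4. The log2 change was -0.27 (SE 0.08, 95% interval -0.46 to -0.08), or 0.828-fold, with an unadjusted p = 0.0117 and a limma adjusted p = 0.573. It was -0.26 at 12 weeks and -0.27 at 13 weeks, and between -0.32 and -0.23 in the 14 alternatives. Of the other 8 members of the Slc30 family besides Slc30a1, 6 had a log2 change above 0 and 2 below. The farthest of them was Slc30a10, a manganese exporter of hepatocytes and bile ducts, at 9.88, 9.62, 8.84 and 9.82 in controls 1 to 4 and 9.75, 9.71 and 10.14 in Trpm6-deficient livers 1 to 3. Control 3 lay below all other livers, and without it the log2 change of 0.33 (SE 0.27, limma adjusted p = 0.872) became 0.09. Slc30a5, Slc30a6 and Slc30a7, which load zinc into the secretory pathway, had log2 changes of -0.02, 0.06 and 0.03, with intervals that ended at most 0.21 from 0. Slc30a4, a carrier of endosomes, had one of 0.00 (95% interval -0.29 to 0.30). Slc30a2, Slc30a3 and Slc30a8 are known from pancreas and mammary gland, from neurons and from islet beta cells. Slc30a2 and Slc30a8 lay below the median of all 7 arrays, and Slc30a8 below the lower quartile of 2, so a change in them may not be measurable. Their log2 changes were 0.02 and -0.07, and that of Slc30a3 was 0.04.

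None of the 14 Slc39 importers reached an unadjusted p of 0.05, and 9 had a log2 change above 0 and 5 below. Slc39a4, the zinc importer whose loss in the gut causes acrodermatitis enteropathica, had the largest of these. It was at 10.52, 9.40, 10.28 and 10.57 in controls 1 to 4 and at 10.91, 10.69 and 10.57 in Trpm6-deficient livers 1 to 3. Control 2 was lowest by far, and control 4 tied with Trpm6-deficient 3. The log2 change was 0.53 (SE 0.29, 95% interval -0.18 to 1.24, limma adjusted p = 0.823), and 0.27 without control 2. Control 2 was thus the lowest liver for Slc39a4, Mt1 and Mt2, and the highest for Slc39a10.

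Slc39a14, the importer of zinc, iron and manganese that interleukin 6 induces in hepatocytes, was at 10.82, 10.71, 10.78 and 10.81 in controls 1 to 4. It was at 10.76, 10.83 and 11.39 in Trpm6-deficient livers 1 to 3, so that only Trpm6-deficient 3 stood out. Its log2 change of 0.21 (SE 0.15, limma adjusted p = 0.854) became 0.015 without that liver. In the same liver Orm2, an acute phase gene, was at 12.32, against 8.93 to 9.35 in the controls and 9.44 to 10.33 in the other Trpm6-deficient livers. Of the other acute phase genes measured, Orm1, Lcn2, Socs3, Il1rn and Hamp were above all controls in that liver. Saa1, Saa2, Hp, Fgg, Hpx, Cebpd and Steap4 lay within the range of the controls, and Saa3 and Fgb below it. Slc39a6, a zinc importer of the plasma membrane, was also highest in Trpm6-deficient 3, at 7.2 against 6.47 to 6.74 in the other 6 livers, and its log2 change of 0.11 was -0.095 without that liver. Whether these values share a source was not tested.

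Slc39a8, an importer of zinc and manganese on the bile side of hepatocytes, had a log2 change of 0.06 (95% interval -0.12 to 0.23). Slc39a5, a basolateral importer of gut, pancreas and liver, had one of 0.10 (95% interval -0.09 to 0.28) and was at 7.11 in control 4, the liver with pancreatic transcripts, against 6.86 to 7.13 in the other controls. Slc39a7, Slc39a13, Slc39a9 and Slc39a11 release zinc from the endoplasmic reticulum, Golgi or other stores, and had log2 changes of 0.00, 0.04, -0.08 and -0.08. Slc39a1 and Slc39a3, zinc importers of the cell surface, had log2 changes of -0.13 and -0.02, and the other probe set of Slc39a1 had one of -0.06. Slc39a2 and Slc39a12 are known from skin and from brain. Slc39a2 was at 6.32 in all 4 controls and at 6.24 to 6.61 in Trpm6-deficient livers, and Slc39a12 was at 5.25 to 5.33 and 5.23 to 5.4. Slc39a12 lay below the median of all 7 arrays and Slc39a2 below that of 6.

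**Figure D5:**
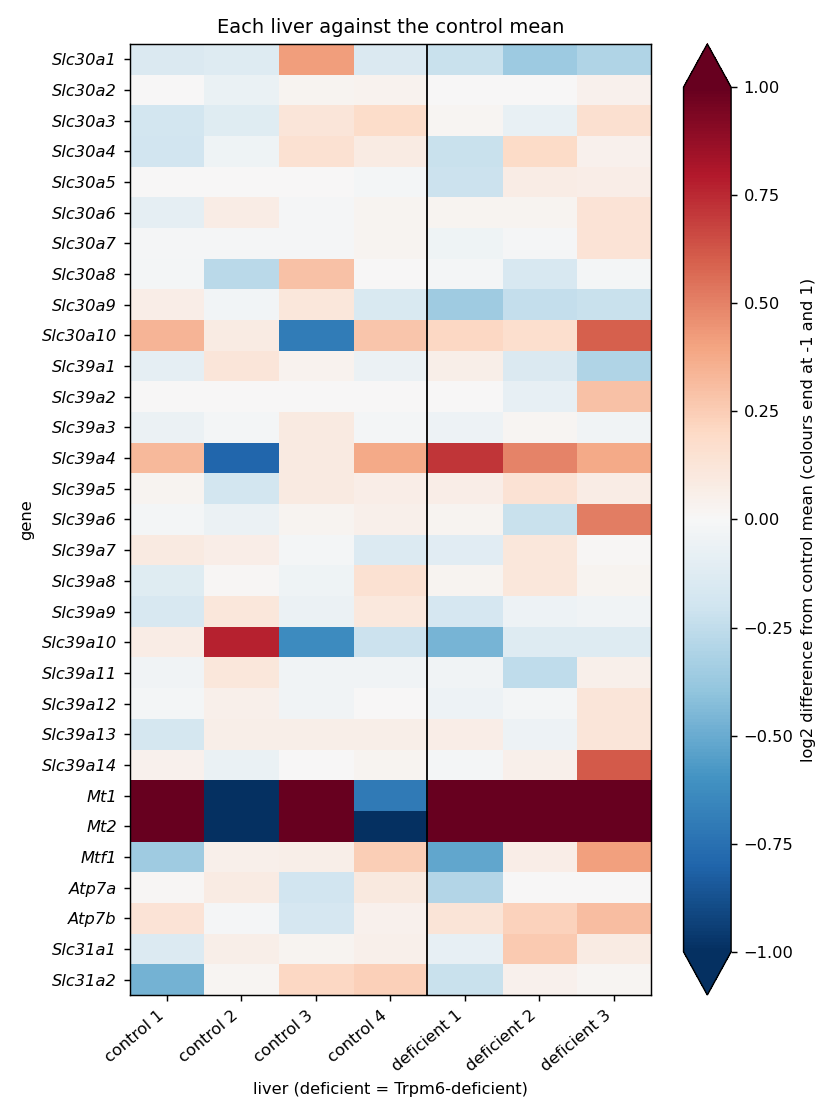
Log2 difference of each liver from the control mean for the 31 genes, with genes in rows and livers in columns, the groups parted by a line, and colours that end at -1 and 1. Mt1 and Mt2 run below the control mean in controls 2 and 4 and above it in the other 5 livers, Slc30a9 is below it in all 3 Trpm6-deficient livers, and most other genes stay pale.

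Atp7b, the copper pump of hepatocytes that is defective in Wilson disease, was at 8.83, 8.68, 8.52 and 8.73 in controls 1 to 4 and at 8.82, 8.92 and 9.0 in Trpm6-deficient livers 1 to 3. Trpm6-deficient 1 lay just below control 1, and the other Trpm6-deficient livers lay above all controls. The log2 change was 0.22 (SE 0.09, 95% interval 0.02 to 0.43), or 1.17-fold, with an unadjusted p = 0.0379 and a limma adjusted p = 0.690. Its direction held in 14 of 14 alternatives, in 7 of which the unadjusted p from limma was 0.05 or less. Atp7a, the related pump that is defective in Menkes disease and little used by adult hepatocytes, had a log2 change of -0.10 (95% interval -0.36 to 0.17). Slc31a1, the high-affinity copper importer, was at 11.39 to 11.59 in control and 11.45 to 11.79 in Trpm6-deficient livers, with a log2 change of 0.09 (95% interval -0.14 to 0.31). Slc31a2, a related carrier of endosomes and lysosomes, had a log2 change of -0.05 (95% interval -0.50 to 0.39) and was lowest in control 1, at 9.11, and Trpm6-deficient 1, at 9.36.

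The precision differed between members. For 22 of the 31 genes the 95% interval lay within 0.5 log2 units of 0 on both sides, so larger changes lay outside it. For the other 9 genes it did not, and these were Mt1, Mt2, Mtf1, Slc30a1, Slc30a10, Slc39a4, Slc39a6, Slc39a10 and Slc39a14. These intervals are not adjusted for the number of genes.

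Other genes that handle copper and zinc gave no call over all probe sets either. At an unadjusted p of 0.05 or less, 3.85% of all probe sets were higher and 3.03% lower. Of 12 measured copper chaperones and metalloreductases, 1 was higher and none lower by the unadjusted p, with a median log2 change of 0.10. This was Steap2, a metalloreductase gene, at 8.12, 7.69, 8.12 and 7.83 in controls 1 to 4 and 8.28, 8.33 and 8.57 in Trpm6-deficient livers 1 to 3 (log2 change 0.45, SE 0.14, limma adjusted p = 0.589). All Trpm6-deficient livers were above all controls. Of 10 measured copper enzymes none reached that threshold (median 0.09), and Cp, which encodes ceruloplasmin, the copper protein of serum, had a log2 change of 0.11 (95% interval -0.11 to 0.32). Of 13 zinc-related genes, Mt3 and Mt4 among them, 1 was higher and none lower (median 0.02). This was Car8, a member of the carbonic anhydrase family that lacks the catalytic zinc. It was at 10.96, 10.87, 10.81 and 11.10 in controls 1 to 4 and 11.60, 11.56 and 11.26 in Trpm6-deficient livers 1 to 3. The groups did not overlap, with a log2 change of 0.54 (SE 0.11, limma adjusted p = 0.337).

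Genes that glucocorticoids or interleukin 6 induce, as they do metallothioneins, were measured on the same arrays. The mean level of 11 glucocorticoid-induced genes was 10.26, 10.07, 10.25 and 10.33 in controls 1 to 4 and 10.45, 10.15 and 10.67 in Trpm6-deficient livers 1 to 3. Control 2 was the lowest and control 4 the highest control, and the groups overlapped. Trpm6-deficient 2 was below every control in Tsc22d3, Per1, Sgk1, Zbtb16, Dusp1, Pck1 and Angptl4. That did not hold for Fkbp5, Tat, Errfi1 and Sult1e1. Sult1e1, an estrogen sulfotransferase gene, was the only one of the 11 with an unadjusted p of 0.05 or less (median of the list 0.06). It was at 3.38 to 4.08 in the controls and 4.06, 7.81 and 5.93 in Trpm6-deficient livers 1 to 3 (log2 change 2.25, limma adjusted p = 0.672). All controls and Trpm6-deficient 1 were under the lower quartiles of all 7 arrays, which leaves the size of this difference uncertain. It was 1.31 without Trpm6-deficient 2 and 2.15 to 3.185 without any other single liver. The mean levels of the list include Sult1e1, which raised those of Trpm6-deficient 2 and 3 relative to the controls. The part of glucocorticoids in the metallothionein values was not tested.

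The mean level of 15 acute phase genes was 10.63, 10.21, 10.29 and 10.07 in controls 1 to 4 and 10.55, 10.18 and 10.63 in Trpm6-deficient livers 1 to 3. Controls 1 and 3 were above controls 2 and 4, and Trpm6-deficient 1 and 3 above Trpm6-deficient 2, as for Mt1 and Mt2, while the groups overlapped. Among single genes of the list only Saa3, Hp and Lcn2 had this order of the controls, and the others did not. In the mean level of the list Trpm6-deficient 2 was below control 2, whereas in Mt1 and Mt2 it was above. Before adjustment 4 of the 15 genes were higher and none lower (Lcn2, Orm2, Hamp and Il1rn), against 3.85% of all probe sets higher and 3.03% lower. The median log2 change of the list was -0.04. Lcn2, which encodes a siderophore-binding protein, was at 8.59, 7.95, 8.90 and 8.06 in controls 1 to 4 and 9.32, 10.71 and 10.88 in Trpm6-deficient livers 1 to 3. Controls 1 and 3 were above controls 2 and 4, and all Trpm6-deficient livers were above all controls (log2 change 1.93, SE 0.43, limma adjusted p = 0.389). Of the Trpm6-deficient livers, number 1 was the lowest in Lcn2 and the highest in Mt1 and Mt2. Hamp, which encodes hepcidin, Orm2, an orosomucoid gene, and Il1rn, the interleukin 1 receptor antagonist gene, had log2 changes of 0.57, 1.54 and 0.25 (limma adjusted p = 0.577, 0.724 and 0.620). That of Orm2 was 0.73 without Trpm6-deficient 3. Saa1, a serum amyloid gene, had a log2 change of -0.97 (limma adjusted p = 0.872), which was -0.44 without control 1, -0.335 without Trpm6-deficient 2, -1.52 without Trpm6-deficient 1 and 0.48 in 13-week livers alone. Steap4 stands on both this list and that of the metalloreductases. The part of the acute phase in the metallothionein values was not tested.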

How the data were processed

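Liver RNA of 4 control and 3 Trpm6-deficient mice was hybridised to GeneChip Mouse Gene 1.0 ST arrays. According to the submitters' processing notes and the study's methods, the authors corrected the background, normalized and summarized the probes by RMA in Affymetrix Expression Console 1.4.0 and deposited log2 values with 2 decimals for 35556 probe sets. RMA draws low signals together, so changes in dim genes are understated. Precision is limited by the number of arrays. Symbols were taken from the annotation of the platform: 1 for 21789 probe sets, several for 1621 (not used) and none for 12146. The deposited values were fitted without a filter or covariate with limma 3.58.1 in R 4.3.3, with Benjamini-Hochberg adjustment across the whole array and a threshold of 0.1. The fit was tested on simulated data. The p-values set the difference between the group means against the spread between mice, which limma moderates across probe sets. Members and lists were chosen with earlier results of these data known. Full values are given for metallothioneins, for members with an unadjusted p of 0.05 or less or a log2 change of 0.5 or more in size, and for up to 4 such genes per list, with the first gene of a list otherwise. Values of Slc30a1, Slc30a10, Slc39a10, Slc39a14, Slc39a6, Mtf1, Mt3 and Mt4 were added after they were seen. Promoter windows were taken from RefSeq (GRCm38.p6), matched by symbol, and any window of a member on an excluded chromosome was left out. Alternatives were age as a covariate, 13-week livers only, a replicate block, renormalization, median centring, a filter at a mean log2 value of 5, trended robust moderation, an adjusted p of 0.05, other probe sets and leaving out each liver.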

Additional observations from a re-analysis of the deposited data

Results flagged for a closer look

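In 6 of 39 named genes 1 control lay far from the other 3 by Dixon's test, which chance gives in about 1 of 20 groups, and several of these gaps are only hundredths of a log2 unit between near-equal values. Slc30a1 was at 9.28 in control 3 and at 8.72 to 8.73 in the other controls. Slc39a13 was at 8.63 in control 1 and at 8.86 in the other controls, and Slc31a1 at 11.39 in control 1 against 11.56 to 11.59. Slc39a11 was at 8.98 in control 2 and at 8.83 in the other controls. Control 4 was at 9.24 for Slc30a5, with the other controls at 9.27, and at 8.87 for Slc30a7, with the other controls at 8.83.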

How the results depend on the processing

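Under every alternative, 0 members passed in limma after adjustment, and the direction of Mt1, Mt2, Slc30a9, Atp7b, Slc30a1 and Slc39a4 held in all 14. The groups do not overlap in Mt1, Slc30a9 and Slc30a1, so leaving out livers could not turn their direction. Over all probe sets the 46 calls became 8 with age as a covariate, 1 with the replicate block, 70 at a mean log2 value of 5 or more, 14 at an adjusted p of 0.05, and 7 to 69 without 1 liver (9, 10, 7 and 9 without controls 1 to 4, and 69, 17 and 14 without Trpm6-deficient 1 to 3). With 13-week livers only, limma made 0 calls over all probe sets, and before adjustment 0 members were higher and 0 lower. Without 1 liver, 0 to 3 members were higher and 1 to 2 lower before adjustment, and their median log2 change was -0.025 to 0.065. Among members other than Mt1 and Mt2, 1 was higher, an alternative chosen after seeing the data. The labels do not say whether livers with the same replicate number share a litter or batch. Deviations from the group means correlated between same-numbered livers at 0.33, 0.26 and 0.09. Trpm6-deficient 1 and 2 correlated best with controls 1 and 2, and Trpm6-deficient 3 with control 4 (0.23). What the numbers stand for was not tested. With the replicate block Mt1 changed by 1.92 (SE 0.54, limma unadjusted p = 0.0308, adjusted p = 0.482). Mt2 changed by 2.06 in that setting (SE 0.64, limma unadjusted p = 0.0402, adjusted p = 0.510). In 3 of the 14 alternatives the unadjusted p of Mt2 from limma was 0.05 or less.

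The sign of several members and of Saa1 turned. With age as a covariate Slc30a3 was at -0.006 and Slc30a4 at -0.001. In 13-week livers only, Slc30a2 was at -0.005, Slc30a3 at -0.06, Slc30a4 at -0.205, Slc39a5 at -0.005, Slc39a8 at -0.025, Slc39a10 at 0.125, Slc39a11 at 0.045, Slc31a1 at -0.04 and Saa1 at 0.48. With the replicate block Slc39a7 was at -0.0433, Mtf1 at 0.0667 and Slc31a2 at 0.0267. With arrays centred on their medians Slc30a4 and Slc39a7 were both at -0.00917. Without 1 liver log2 changes ran from -0.00333 to 0.03 for Slc30a2, -0.0275 to 0.0967 for Slc30a3, -0.09 to 0.115 for Slc30a4, -0.0725 to 0.0725 for Slc30a5, -0.025 to 0.065 for Slc30a7, and -0.157 to 0.03 for Slc30a8. For the Slc39 family they ran from -0.04 to 0.145 for Slc39a2, -0.0425 to 0.01 for Slc39a3, -0.095 to 0.27 for Slc39a6, -0.05 to 0.06 for Slc39a7, -0.453 to 0.0133 for Slc39a10, -0.1475 to 0.0075 for Slc39a11, -0.0375 to 0.0475 for Slc39a12 and -0.0133 to 0.0925 for Slc39a13. They ran from -0.2275 to 0.2375 for Mtf1, -0.16 to 0.005 for Atp7a and -0.21 to 0.03 for Slc31a2. The cause was not tested. With 7 arrays, intervals are wide where controls spread, as in Mt1 and Mt2, and changes of dim genes near the lower quartile of the arrays may go unseen.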
